A study of Anguilla anguilla with 3 samples.

Results

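The genes described here are those whose transcripts stood highest in the ovary of a prepubertal silver European eel (Anguilla anguilla), well above both a yellow eel and a matured eel sampled after spawning. A gene was taken when its reads, scaled to a common library size and here called normalised reads, reached at least 300 in the silver library and, with 30 added on each side, were at least 4 times those of the yellow and of the matured library. Of 45974 predicted genes 32673 carry a protein name, 10422 of these reached 300 normalised reads in the silver library, and 158 passed. Of these, 11 carried one of 13 names that the rule leaves out (casp1, rir2, pgh1 and others), which leaves 147 genes under 142 names. The genes were thus chosen by these levels in the 3 libraries, so the levels and folds below are a description and no test was made of them.

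The yellow stage is the growing stage of the eel, the silver stage is that of the animal preparing for its seaward migration, and the matured eel had spawned. Each library came from 1 eel, with tissue from 3 parts of the gonad pooled before RNA extraction. The labels place the silver eel in Lake Grevelingen in December and the others in Lake Veerse in spring, of another year. Stage, lake, season, year and individual therefore cannot be told apart. No treatment is given in the labels for any of the eels, and how the matured eel was brought to spawning was not analysed here.

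A growing fish ovary is mostly oocytes, which store transcripts, yolk and lipid for the embryo, wrapped in granulosa and theca cells that make steroids. In the eel, growth of the oocyte is held before puberty and resumes under gonadotropins, when yolk is laid down. After spawning, what is left is emptied follicles, young oocytes and connective tissue. In bulk RNA of such a tissue, fewer cells of a type and less RNA per cell cannot be told apart, and this holds for every gene below.

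Reads assigned to genes numbered 27811764 for the yellow, 41426808 for the silver and 30137882 for the matured eel, and at least 97.9% of each were uniquely aligned. Oocyte markers were the most abundant of 13 marker lists in all 3 libraries, with summed levels of 1901460, 1544750 and 1255050 normalised reads in the yellow, silver and matured library, and none of their 26 genes was under 1 normalised read. Marker lists that followed the silver library were few. The adipocyte list summed to 13951, 52438 and 9330 normalised reads in the yellow, silver and matured library over 12 genes, nearly all of it from the fatty acid-binding protein fabp4 (g3192) at 12922, 50842 and 7036, while perilipin plin1 (g8968), a coat protein of fat cell lipid droplets, was at 512, 495 and 376 and 2 of the 12 genes were under 1 in the silver library. The epithelial list summed to 27878, 40456 and 33842 over 34 genes, of which 3 were under 1 in the silver library. Most of the silver sum was the cadherin cadh1 (g3555) at 15293, 27410.5 and 9764.5, while the keratin k1c18 (g5911) was highest in matured at 671, 1085 and 6359. Of the 9 epithelial genes with 300 normalised reads in silver, 4 were highest there, so the order of the sums leans on cadh1. The hepatocyte list summed to 287, 552 and 355 over 13 genes, with 1 under 1 in the silver library. The other 9 lists were not highest in the silver library. Granulosa and theca markers summed to 1075, 3650 and 18644, T and B lymphocyte markers to 818, 916 and 8297, fibroblast markers to 3169, 3515 and 29973, and macrophage and granulocyte markers to 28092, 11499 and 19051. The last sum is carried by cd68 (g2063), a lysosomal protein, at 21264, 3884 and 4636, and without it the list summed to 6828, 7615 and 14415. The T and B lymphocyte sum in the matured library is mostly the immunoglobulin gene mucm (g15046), at 265, 102 and 7508. The most abundant gene of that list in silver, tcf7 (g13024), was highest in silver at 393, 597 and 286. Endothelial, erythrocyte, smooth muscle, skeletal muscle and nerve and glia lists were each highest in the yellow or the matured library. The part of other cell types in the levels below was not tested.

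With the same thresholds 53 named genes stood highest in the yellow library and 171 in the matured library. In the silver library 3.82% of the 10422 genes were at least 4 times the yellow level, 5.11% were at least 4 times the matured level, and 1.52% were both, the 11 left-out genes included. Silver was above both other libraries, by any margin, in 49.5% of the genes. The 147 genes ranged from 300.1 to 42138 normalised reads in the silver library, with a median of 1714. They ranged from 0 to 6996 in the yellow library (median 261) and from 0.93 to 7137 in the matured library (median 282). The median ratio was 6.70-fold over yellow, in the 145 genes that had reads there, and 6.64-fold over matured in all 147. Many lay close to the threshold. The lower of the ratios, with 30 added, was under 5 in 74 genes, from 5 to under 10 in 63 and 10 or more in 10. The lower bound of the exact 95% interval of both folds, without the 30 added, was at or above 4 in 128 genes. The genes were chosen by these same counts, so this number is a description and no support for the choice. Intervals printed in parentheses after a fold are of this kind and say nothing of the spread between eels. Where a gene is given 3 values without further words, these are its normalised reads in the yellow, the silver and the matured library, in that order.

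**Figure D1:**
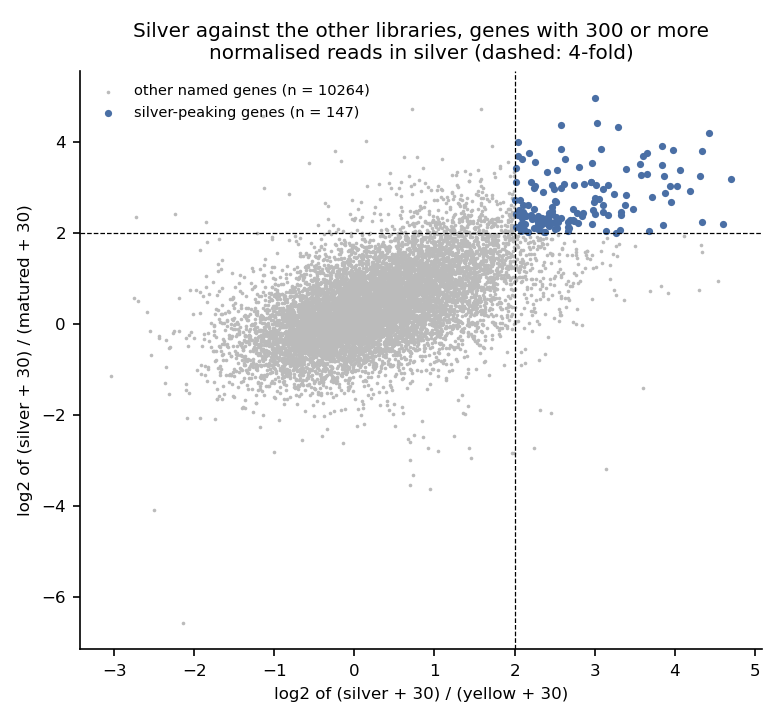
Each point is a named gene with at least 300 normalised reads in the silver library; the x axis is the log2 ratio of silver to yellow and the y axis that of silver to matured, both after adding 30 normalised reads, with 1 eel per library. The 147 genes described here (blue) fill the upper right corner past the dashed 4-fold lines, many of them close to the lines, and the 10264 other genes (grey) spread around a diagonal, as both axes share the silver library.

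The most abundant of these genes was synci (g16019), syncoilin, an intermediate filament protein best known from muscle, at 2279 normalised reads in yellow, 42138 in silver and 5534 in matured ovary. That is 18.5-fold (17.7 to 19.4) over yellow and 7.61-fold (7.41 to 7.82) over matured, and the matured library stood above the yellow one. The gene cx4nb (g20443), named for the neighbour of the cytochrome oxidase subunit gene COX4 in mammals, was at 6996 normalised reads in yellow, 32244 in silver and 6085 in matured ovary. The catalytic subunit of protein phosphatase 4, pp4cb (g4542), was at 6469 normalised reads in yellow, 29105 in silver and 7137 in matured ovary. Both were already abundant in the other libraries, and their folds over the higher of these lay near the threshold, 4.61-fold (4.48 to 4.74) for cx4nb over yellow and 4.08-fold (3.98 to 4.18) for pp4cb over matured. The next were id1 and eri2, both given below with the genes of transcription and RNA. In all, 13 genes exceeded 10000 normalised reads in the silver library, 99 reached 1000 and 48 lay under 1000. Per transcript length, on the scale of the authors' RPKM (reads scaled to transcript length and library total), synci led at 666 in the silver library, against 23.3 for the median of the 147 genes.

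Measured by the lower of the ratios with 30 added, which holds back genes with few reads, the first gene was e41la (g5183), a member of the band 4.1 family that ties membranes to the cytoskeleton, at 66.5 normalised reads in yellow, 2044 in silver and 83.6 in matured ovary. Without the addition this is 30.7-fold (23.5 to 41.04) over yellow and 24.5-fold (19.8 to 30.5) over matured, and genes with very few reads in the other libraries, cc141 and sytl2 among them, lie higher. The coiled-coil gene cc141 (g13257) was at 2.46 normalised reads in yellow, 435 in silver and 0.93 in matured ovary. The numbers of reads behind the low values were 2 and 1, which gives 177-fold (48.6 to 1463) over yellow and 469-fold (83.7 to 18542) over matured, with wide intervals. A Rab27 effector that docks secretory vesicles, sytl2 (g3203), was at 7.39 normalised reads in yellow, 557 in silver and 11.1 in matured ovary. Its yellow and matured levels rest on 6 and 12 reads. The metalloreductase stea1 (g23426), of a family that reduces iron and copper at membranes, was at 54.2 normalised reads in yellow, 966 in silver and 56.7 in matured ovary. Yellow and matured were both low for stea1, and its folds were 17.8-fold (13.2 to 24.7) and 17.04-fold (13.2 to 22.4). Among genes with no reads at all in the yellow library were cq10x (g8592), a coenzyme Q-binding protein, and pdz1p (g20018), named for a PDZ domain protein. With yellow set to a floor of 3 reads, silver was 117-fold and 111-fold higher, and the lower 95% counting bounds were 94.6-fold and 89.8-fold. Both genes stood at 432 and 409.5 normalised reads in the silver library, and the matured library had 26 and 29.7.

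**Figure D2:**
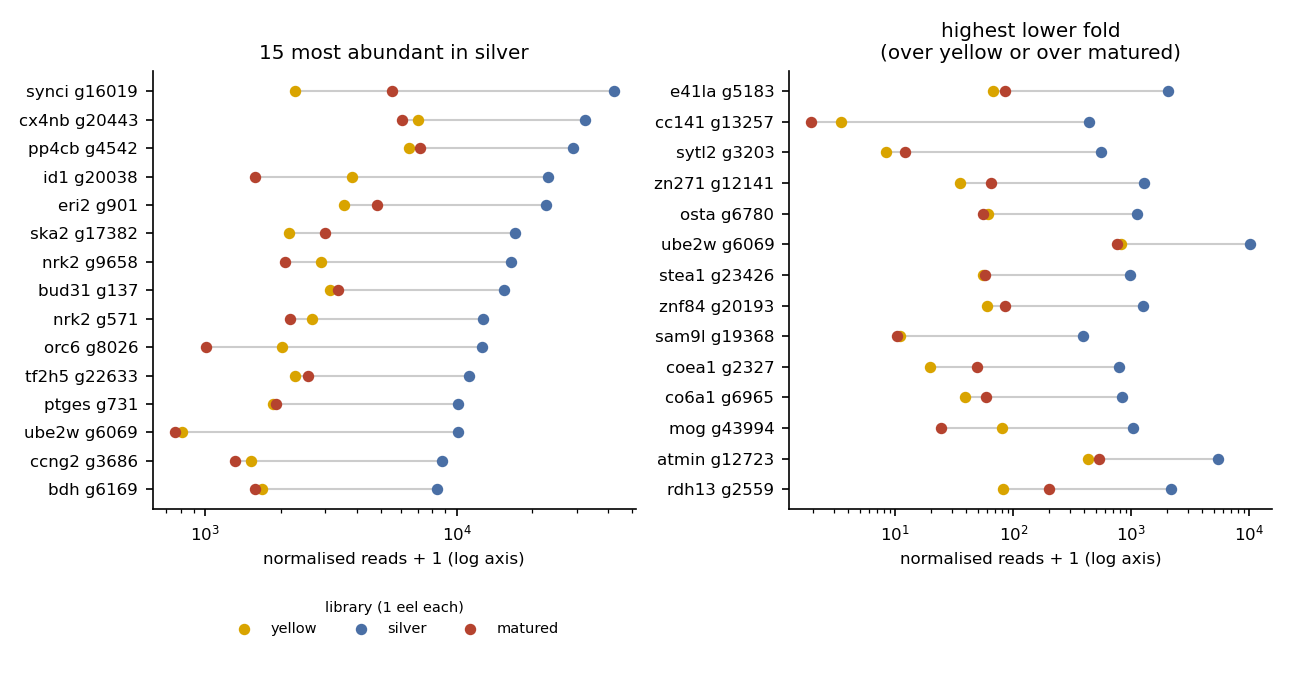
Normalised reads plus 1 (log axis) of single genes in the yellow, silver and matured library, 1 eel each, for the 15 genes most abundant in silver (left) and for those of the 15 with the highest lower fold, 30 added, that are reported here (right). Silver lies to the right of both other libraries in every line, as the choice of genes requires, and yellow and matured lie close together in most lines, with cc141 at 2.46 and 0.93 normalised reads at the low end.

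Sorted by the role their protein names are known for, the genes were spread over many kinds of work. There were 20 under cell division and its microtubules, 21 under transcription and RNA, 20 under signalling, 8 under lipid, steroid and vitamin metabolism, 21 under other metabolism, 13 under membrane transport and traffic, 12 under matrix, adhesion and cytoskeleton, 10 under immune and surface receptors and 4 under ubiquitin, with 18 of other or unknown role. These groups were drawn after the genes were known and serve only to order the text. Their median fold over yellow ran from 5.53 for the genes of other or unknown role to 11.1 for the immune and surface receptors, and over matured from 5.42 for transcription and RNA to 23.5 for the immune and surface receptors.

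**Figure D3:**
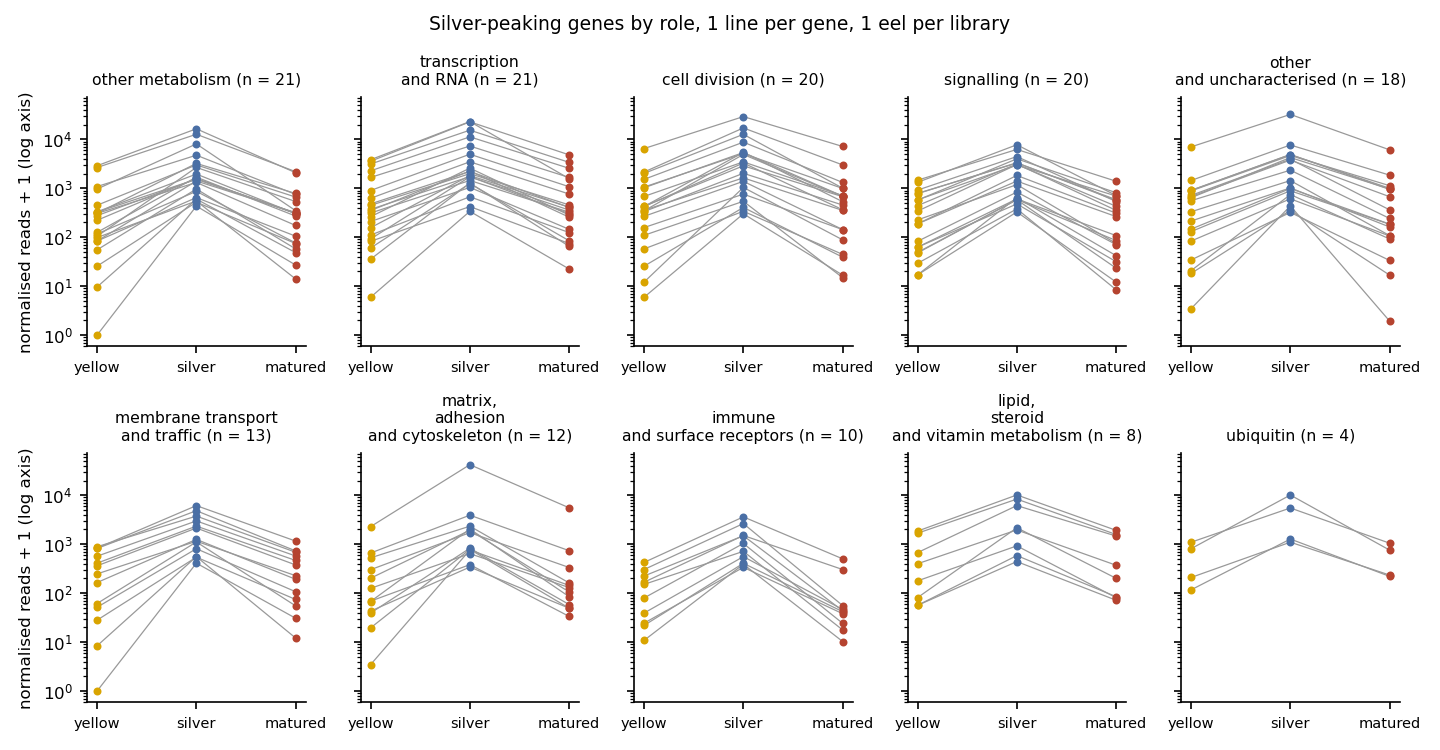
Normalised reads plus 1 (log axis) of the 147 genes in the yellow, silver and matured library, 1 line per gene and 1 eel per library, in panels by role. The peak in silver is set by the choice of genes; the panels show how unequal the other libraries are, as in the immune and surface receptor panel, where some genes are far lower in matured than in yellow (tri39 at 303 and 54.8).

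Genes of the cell division group, pp4cb among them, ranged from 300.1 to 29105 normalised reads in the silver library, and most of them act at the spindle, the centrosome or the chromosome. At the kinetochore, ska2 (g17382), a subunit of the complex that holds kinetochores on microtubules, was at 2143 normalised reads in yellow, 17068 in silver and 2995 in matured ovary. The inner kinetochore protein cenpw (g8571) was at 679.9 normalised reads in yellow, 3459 in silver and 706 in matured ovary. Replication and checkpoint genes included orc6 (g8026), a subunit of the origin recognition complex that marks where DNA synthesis starts, at 2010.1 normalised reads in yellow, 12632 in silver and 1002 in matured ovary. It was 6.28-fold (5.97 to 6.62) over yellow and 12.6-fold (11.8 to 13.4) over matured, and yellow stood above matured. The checkpoint clamp subunit rad1 (g6548) was at 1022, 5375 and 689 normalised reads in the yellow, silver and matured library, and atmin (g12723), a cofactor of the ATM kinase of the DNA damage response, was at 424, 5399.7 and 531. The latter was 12.7-fold (11.4 to 14.2) over yellow and 10.2-fold (9.33 to 11.1) over matured, and with 30 added its lower fold was the largest in the group. Cyclin G2, ccng2 (g3686), which is known to accompany exit from the cell cycle, was at 1519.9 normalised reads in yellow, 8747 in silver and 1313 in matured ovary. The growth arrest-specific gene gas1 (g14840), a co-receptor at the membrane, was at 1056, 5116 and 989.

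At the centrosome, ce170 (g7500) was at 11.1 normalised reads in yellow, 1039.7 in silver and 87.3 in matured ovary, the yellow level resting on 9 reads, or 93.8-fold (49.2 to 206) over yellow and 11.9-fold (9.65 to 14.9) over matured. The matured level was 7.88-fold (3.98 to 17.8) that of yellow. The centrosome and cilium protein cep41 (g639) was at 422, 3279.7 and 363 and mzt1 (g14665), which recruits the gamma-tubulin complex that seeds microtubules, at 429, 2872 and 672. The microtubule-binding EMAP family member emal6 (g21722) was at 345 normalised reads in yellow, 4911 in silver and 681 in matured ovary. Of proteins known from cilia, the kinesin kif19 (g2319) was at 156, 758 and 142 and the filament protein tekt4 (g20364) at 4.93, 300.1 and 15.8, the least abundant of the 147 in silver. A septin, spn6 (g34296), named after a fission yeast protein at a similarity of 53.3%, was at 24.6, 405 and 38.1. A lamin B gene, lmnb1 (g31275), was at 56.7, 338 and 43.6. Several other lmnb1 genes had more reads in silver without passing, most of all g25568 at 479, 694 and 370. The ubiquitin ligase g2e3 (g1366), named for its peak before mitosis in human cells, was at 333, 2021 and 453, and map1a (g25887), a microtubule-associated protein, at 108, 541 and 13.9. Another g2e3 gene, g849, was more abundant at 1585, 2979 and 2629, highest in silver but by less than 4-fold.

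Histone H4 was among these genes in 2 copies. The copy g18836 was at 355, 1629 and 352 normalised reads in the yellow, silver and matured library and the copy g8213 at 266, 1385 and 142. Of the 8 genes named h4, the next in silver was g38018 at 91.1, 311 and 114, while g705 (293, 289.5 and 78.9) and g28475 (345, 214 and 77.1) had more reads in the yellow library than in the silver one. Histone copies are close to identical and 92.6% of the reads of g18836 aligned uniquely, so the split of reads among copies is uncertain. Of 61 cell cycle and DNA replication genes of a list, 0 were at least 4 times both other libraries, 1 was at least 4 times yellow and 4 were at least 4 times matured, against 1.52%, 3.82% and 5.11% of all genes, so the counts lay near the shares over all genes. That list leans on cyclins, kinases and helicase subunits and holds neither ska2 nor orc6.

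In the group of transcription and RNA, the most abundant gene was id1 (g20038), which blocks DNA binding of helix-loop-helix factors and is a known target of BMP signalling. It was at 3824 normalised reads in yellow, 23028 in silver and 1571 in matured ovary, that is 6.02-fold (5.8 to 6.25) over yellow and 14.7-fold (13.95 to 15.4) over matured, and the matured level was 0.411-fold (0.387 to 0.436) that of yellow. A second gene named id1 (g5955) was at 2196, 4181 and 494, also highest in silver but by less than 4-fold over yellow. The exonuclease-like gene eri2 (g901) was at 3557 normalised reads in yellow, 22739 in silver and 4808 in matured ovary. Splicing factor bud31 (g137) was at 3121, 15362 and 3379.6 and tf2h5 (g22633), a small subunit of TFIIH, which opens promoters and takes part in DNA repair, at 2266, 11214 and 2554. For both, yellow and matured lay close together. The prefoldin-like cofactor uxt (g12034) was at 899, 4955 and 1074 and sp30l (g16979), a subunit of a histone deacetylase complex, at 622, 3472 and 762. The homeobox factor hhex (g9548), known from blood, liver and thyroid development, was at 91.1 normalised reads in yellow, 1714 in silver and 358 in matured ovary. Its matured level was 3.92-fold (3.05 to 5.1) that of yellow, so that silver was 18.8-fold (14.9 to 24.1) over yellow and 4.79-fold (4.29 to 5.36) over matured. A repressor cofactor of somite formation, ripp1 (g14674), was at 4.93, 337 and 21.4 and the nucleosome-associated glyr1 (g911) at 349.8, 2246 and 255, while ctsl2 (g1885), a small phosphatase of the CTD family, was at 310.4, 1444 and 323 and cite2 is given below with its copies. Other ctsl2 genes were not highest in silver, g23124 at 2074, 1544 and 2304 and g10654 at 1298, 1132 and 958.

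Genes named after mammalian zinc finger proteins made up 9 of the 147. They were at 669 to 7281 normalised reads in the silver library, 4.38-fold to 37.0-fold above yellow and 4.35-fold to 19.9-fold above matured. The largest folds were those of zn271 (g12141), at 34.5 normalised reads in yellow, 1275 in silver and 64.1 in matured ovary, and of znf84 (g20193), at 59.1 normalised reads in yellow, 1247 in silver and 83.6 in matured ovary. The most abundant was zn845 (g19213) at 1664, 7281 and 1660.5, and zn300 (g22146) was at 478, 2210 and 404 and zn429 (g23130) at 369.5, 1726 and 302. This set of names was drawn up after the 147 were known, so its shares are a description only. Over all 159 genes with such a name and 300 normalised reads in silver, 5.66% passed both thresholds against 1.52% of all named genes. Those that passed are the 9 of the 147. Of the 150 that are not among the 147, 95 (63.3%) were highest in the silver library, against 49.5% of all genes, with a median log2 ratio, 30 added, of 0.32 over yellow and 0.82 over matured (0.22 and 0.36 for all genes). These genes form large families of similar sequence, and the share of uniquely aligned reads was 69.2% for zn845, 61.6% for zn429 and 85.1% for zn160 (g11906), so their levels are uncertain. It was 97.5% or more for zn271, znf84, zn300 (g22146) and zn208 (g11907), and 94.2% and 95.4% for the zn665 genes. Both zn665 genes carry consecutive identifiers, g12145 at 261, 2578 and 282 and g12146 at 208, 1042 and 144, as do zn160 (g11906) at 109.6, 669 and 124 and zn208 (g11907) at 446, 1985 and 456. Map positions were not used here.

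Ligands and co-receptors opened the signalling group. The EGF-CFC family member cfc1 (g5186), a co-receptor for Nodal ligands, was at 1318 normalised reads in yellow, 7737 in silver and 708 in matured ovary, that is 5.87-fold (5.51 to 6.26) over yellow and 10.9-fold (10.2 to 11.8) over matured. Of 8 Nodal pathway genes with 300 normalised reads in silver, in a list drawn up after the 147 were known, it was the only one to pass both thresholds. Among all genes 1.52% passed, and so few genes cannot be told from that share. The activin receptor acv1b (g11465) was at 897, 1884 and 1636, smad2 (g7548) at 3688, 2537 and 2321 and the nuclear partner foxh1 (g22150) at 2073, 707 and 522, the last 2 highest in the yellow library. Transforming growth factor alpha, tgfa (g11337), a ligand of the EGF receptor, was at 186 normalised reads in yellow, 1399.8 in silver and 262.8 in matured ovary. It was 7.53-fold (6.37 to 8.95) over yellow and 5.33-fold (4.69 to 6.07) over matured, while another ligand of that receptor, hbegf (g25343), was at 220.5, 452 and 302. Betacellulin, btc (g14739), a further ligand of that receptor, had the opposite pattern at 514, 45.9 and 396, lowest in silver. The Wnt ligand wn11b (g1509) was at 28.3, 378 and 7.43 and the neurexophilin nxph2 (g6165) at 775, 3320.3 and 562. The secreted factor manf (g1559), which cells under endoplasmic reticulum stress release, was at 915 normalised reads in yellow, 4441 in silver and 535 in matured ovary, and its more abundant namesake g24552 at 9650.2, 22551 and 6933. Also in the secretory route, mesd (g965), a chaperone that LDL receptor family proteins need to fold, was at 1459.5, 6211 and 1389.

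Receptors and inner signalling proteins followed. Receptors of neuropeptides were npff2 (g13151), for neuropeptide FF, at 224, 1186 and 73.4, and npy2r (g6813), for neuropeptide Y, at 16, 327 and 11.1. The cytokine brake socs1 (g5447) was at 339.9 normalised reads in yellow, 3048 in silver and 427 in matured ovary, or 8.96-fold (7.93 to 10.2) over yellow and 7.13-fold (6.47 to 7.88) over matured. A receptor of the TNF family, tnr14 (g25674), was at 186 normalised reads in yellow, 1827 in silver and 309 in matured ovary, with the lowest similarity to its named protein among the 147 genes, 44%. Its namesake g19284 was at 500.1, 2071 and 178, just short of the threshold over yellow. G protein signalling was represented by rgs9 (g1158), which speeds the turning off of G proteins, at 61.6, 605 and 107, and phosducin, phos (g8346), which binds their beta-gamma subunits, at 48, 581 and 22.3. The alpha-arrestin arrd3 (g11439) was at 81.3, 835 and 69.7. Of adaptors of ubiquitin ligases, nfip2 (g1208) was at 572, 3994 and 809.8 and asb7 (g976) at 578, 2982 and 692, while the phosphatase dus19 (g13705) was at 441, 3128 and 352. The Ral activator rgl2 (g4996) was at 46.8, 587 and 84.5, the MET regulator macc1 (g2009) at 785, 3270 and 584 and a glutamate receptor, glrk (g13469), at 61.6, 478 and 30.6. Silver was highest by 4.17-fold or more throughout, and no common order of yellow and matured was seen.

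Among genes of lipids, steroids and vitamins, ptges (g731), the prostaglandin E synthase that makes PGE2 from the product of the cyclooxygenases, was at 1851 normalised reads in yellow, 10144 in silver and 1918 in matured ovary, that is 5.48-fold (5.19 to 5.79) over yellow and 5.29-fold (5.05 to 5.55) over matured. The 5-alpha-reductase s5a1 (g8630), which reduces testosterone and progestins, was at 398, 1956 and 371. Of 13 genes of a prostaglandin and ovulation list, 3 passed both thresholds (ptges, cite2 and the left-out pgh1), and of 31 genes of steroid and cholesterol synthesis 1 did, s5a1, against 1.52% of all genes. Ketone body metabolism appeared with bdh (g6169), the mitochondrial 3-hydroxybutyrate dehydrogenase, at 1676 normalised reads in yellow, 8350.2 in silver and 1576 in matured ovary. The fatty acid desaturase acod (g5657) was at 55.4, 441 and 70.6, while a copy with as many reads in silver, g7190, was highest in yellow at 688, 418 and 129. The carboxylesterase est1 (g5648) was at 55.4, 585 and 83.6.

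A trio of carotenoid and retinoid genes lay in this group. The carotene oxygenase bcdo2 (g16736), which cleaves carotenoids off centre, was at 672 normalised reads in yellow, 6152 in silver and 1466 in matured ovary, and its copy g22864 at 172, 1184 and 543. The dehydrogenase rdh13 (g2559) was at 80.1 normalised reads in yellow, 2167 in silver and 199.7 in matured ovary, or 27.1-fold (21.2 to 35.2) over yellow and 10.9-fold (9.44 to 12.5) over matured, whereas its copy g22668 was nearly level between yellow and silver at 1527, 1427 and 781. The retinol-binding protein ret7 (g21211) was at 177 normalised reads in yellow, 924 in silver and 79.9 in matured ovary. Its neighbour by identifier, g21210, was far more abundant at 38008, 43597 and 15406, highest in silver but by less than 4-fold. Of further ret7 genes, all under 300 in silver, g21209 was highest in silver at 6.2, 108 and 5.6. The gene g5198 was highest in matured at 32, 75.9 and 82.7. In a retinoid list drawn up with these genes known, the other 12 genes with 300 normalised reads in silver included none that passed both thresholds. Among all genes 1.52% passed, and so few genes cannot be told from that share. Of all 15 genes of the list at that level, the 3 above included, 12 were highest in silver, against 49.5% of all genes. Their median log2 ratio, 30 added, was 1.25 over yellow and 1.18 over matured, against 0.22 and 0.36 for all genes. The retinoic acid receptor rarb (g23582) was at 2956, 3160.5 and 592 and the retinoic acid hydroxylase cp26a (g16107) at 897, 578 and 220.1, highest in yellow.

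In other metabolism, the nicotinamide riboside kinases nrk2, which feed NAD synthesis, were the most abundant. The copy g9658 was at 2882, 16391 and 2074, and the copy g571 at 2651, 12681 and 2179.7. The other copy (g9702) was higher still at 8465, 20309 and 7527, also highest in silver but by less than 4-fold over yellow. The maturation factor of dual oxidases, doxa1 (g2851), which these hydrogen peroxide-making enzymes need to leave the endoplasmic reticulum, was at 963 normalised reads in yellow, 8046 in silver and 347 in matured ovary. It was 8.35-fold (7.76 to 9.0) over yellow and 23.2-fold (20.9 to 25.8) over matured. The inositol monophosphatase impa3 (g3056) was at 307, 3219 and 782, and its fold over matured, 4.001 with 30 added, was the nearest of all to the threshold. Cytidine deaminase, cdd (g21523), a pyrimidine salvage enzyme, was at 306, 1313 and 173. Of 42 genes of a nucleotide supply list 6 passed both thresholds, cdd and 5 of the left-out genes, against 1.52% of all genes.

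Amino acid and carbohydrate enzymes were present with hutu (g4546), urocanase of histidine breakdown, at 275, 1546 and 310.2, and the aldehyde dehydrogenase a9a1a (g13224) at 448, 3002 and 659. Aldolase C, aldoc (g6049), a glycolytic enzyme, was at 8.62 normalised reads in yellow, 600.2 in silver and 47.4 in matured ovary, on 7 reads in yellow, while its copy g4873 was level across libraries at 1490.3, 1461 and 1448. Iron-related genes, besides stea1, included the ferritin subunit frim (g8265) at 82.5, 1407 and 317. That is a minor copy, since frim g8785 was at 37682, 88986 and 21244, also highest in silver. The inner membrane protein hig1a (g1311), known to be induced by low oxygen in mammals, was at 104 normalised reads in yellow, 2665 in silver and 535 in matured ovary, or 25.8-fold (20.7 to 32.4) over yellow and 4.98-fold (4.56 to 5.46) over matured. The prolyl hydroxylase egln3 (g10603), which marks hypoxia-inducible factor for destruction, was at 116 normalised reads in yellow, 865 in silver and 75.2 in matured ovary. Its relative p4htm, a membrane-bound prolyl hydroxylase, appeared in 2 genes with near-consecutive identifiers, g1381 at 124, 1689 and 269 and g1379 at 24.6, 518 and 73.4, and whether both predicted genes are parts of one was not tested. Another p4htm gene, g9788, was level at 351, 362 and 424. Tetrahydrobiopterin synthesis gene ptps (g3540) was at 82.5, 644 and 104 and the pyrophosphatase ipyr (g5650) at 97.3, 549 and 13. The acylphosphatase acyp1 (g12405) was at 325, 1526 and 308 and the ester hydrolase-like ck054 (g10255) at 329, 1950.5 and 302. Of mitochondrial ribosomal proteins, rt25 (g631) was at 1083, 4738 and 747 and rm53 (g8707) at 220.5, 1586 and 303.

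Transport genes ranged from 409.5 to 6143 normalised reads in the silver library. The Golgi GDP-fucose transporter fuct1 (g949) was at 830.2 normalised reads in yellow, 6143 in silver and 1157 in matured ovary. The proton pump subunit va0e2 (g8986) was at 818, 4837 and 728 and vma21 (g7219), which assembles that pump, at 887, 3755 and 684. A second vma21 gene, g5404, was highest in yellow at 3518, 2613 and 2170.4, and was the more abundant of both in yellow and matured but not in silver. The bile acid and steroid transporter subunit osta (g6780) was at 60.4 normalised reads in yellow, 1111 in silver and 53.9 in matured ovary, that is 18.4-fold (13.8 to 25.02) over yellow and 20.6-fold (15.9 to 27.3) over matured. The water and glycerol channel aqp3 (g6804) was at 246, 1150 and 227 and the calcium channel crcm1 (g6801), ORAI1, which opens when internal calcium stores are empty, at 50.5, 808 and 106. The cationic amino acid transporter-like s7a14 (g13857) was at 409, 2341 and 465. In vesicle traffic, the SNARE stx3 (g21230) was at 361, 2139 and 376, and sft2a (g12688) at 164, 1254 and 191. Of regulators of autophagy, smcr8 (g135) was at 568, 2989 and 573 and optn (g25607) at 27.1, 543 and 73.4. For optn this was again a minor copy, with g18315 at 6131, 4058 and 4811.

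Of the matrix, adhesion and cytoskeleton genes, synci led by level and e41la by the lower of its folds, 30 added. The type I keratin k1c13 (g11446) was at 659 normalised reads in yellow, 3916 in silver and 736 in matured ovary, with 68.4% of its reads aligned uniquely, so that its level is uncertain. The collagen VI chain co6a1 (g6965) was at 38.2, 827 and 57.6, that is 21.7-fold (15.2 to 32.1) over yellow and 14.4-fold (11.1 to 18.9) over matured. Other co6a1 genes were highest in matured, g8368 at 101, 166 and 905.5 and g12588 at 7.4, 7.1 and 71.5. The collagen XIV chain coea1 (g2327), found at fibril surfaces, was at 18.5, 784 and 48.3, that is 42.4-fold (25.6 to 76.1) over yellow and 16.2-fold (12.3 to 21.9) over matured. The fibroblast marker list, by contrast, was highest in the matured library. The heparan sulfate sulfotransferase hs3s4 (g9170), which adds a rare modification that sets what the chains bind, was at 2.46 normalised reads in yellow, 761 in silver and 143 in matured ovary, on 2 reads in yellow. It was 309-fold (85.2 to 2554) over yellow, with a wide interval, and 5.32-fold (4.48 to 6.36) over matured. Of enzymes that extend lactosamine chains, b3gn3 (g1873) was at 526, 2335 and 161 and b3gn7 (g16551) at 300.5, 1723 and 333. The contactin-associated cntp5 (g3940) was at 201, 1926 and 105, cadherin-8, cadh8 (g14639), at 67.7, 381 and 32.5, the protease ats18 (g2035) at 124, 642 and 129 and the hyaluronan link protein hpln3 (g5493) at 41.9, 341 and 48.3.

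Surface and immune-related names formed the group with the highest median fold over matured, 23.5, in a range from 4.97 to 48.2. Its genes lay either at or below 12.2-fold (cd1d) or at or above 34.8-fold (btnl2), with none near the median. The butyrophilin-like btnl2 (g11975) was at 223 normalised reads in yellow, 1487 in silver and 42.7 in matured ovary, that is 6.67-fold (5.72 to 7.82) over yellow and 34.8-fold (25.98 to 47.7) over matured. The gene mog (g43994), named after a myelin protein of the butyrophilin-related immunoglobulin family, was at 78.8 normalised reads in yellow, 1034 in silver and 23.2 in matured ovary. The tripartite motif gene tri39 (g30740) was at 303 normalised reads in yellow, 2641 in silver and 54.8 in matured ovary, or 48.2-fold (37.3 to 63.5) over matured, and the membrane-spanning m4a15 (g10994) at 150.3, 714 and 16.7. In all 4 the yellow level was above the matured one. Genes that resemble MHC class I heavy chains were cd1d (g39086) at 38.2, 557 and 45.5 and za2g (g33134) at 23.4, 336 and 37.1, both short predicted genes with similarities of 48.3% and 46.4%. The gene sam9l (g19368), whose mammalian namesake restrains viruses, was at 9.85, 389 and 9.29, and the scavenger receptor-like dmbt1 (g5914) at 20.9, 407 and 40.9. A CD200-like glycoprotein, ox2v (g9260), whose best match was a viral homolog, was at 424, 3618 and 502, and dcst1 (g14412), of the DC-STAMP family, at 166, 1506 and 303. Of 14 genes of an interferon and antiviral list 0 passed both thresholds, 0 were at least 4 times yellow and 2 at least 4 times matured, against 1.52%, 3.82% and 5.11% of all genes, and so few genes cannot be told from these shares. T and B lymphocyte markers summed to 916 normalised reads in the silver library, with 11 of their 23 genes under 1 there. Most of that sum was the transcription factor tcf7 (g13024), highest in silver at 393, 597 and 286. It was followed by the immunoglobulin gene mucm (g15046), lowest in silver at 265, 102 and 7508. The T cell genes itk (g23105) at 38.2, 85.6 and 45.5 and cd3z (g23253) at 19.7, 46.8 and 68.7 came next in silver.

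Among the ubiquitin genes, ube2w, which attaches ubiquitin to the N-terminus of proteins, had 2 genes here. Of these, g6069 was at 808 normalised reads in yellow, 10118 in silver and 755 in matured ovary, or 12.5-fold (11.6 to 13.6) over yellow and 13.4-fold (12.5 to 14.4) over matured, the largest lower fold among the 15 most abundant genes. The other, g4096, was at 208, 1099 and 233. Of RING proteins, lonf3 (g14021) was at 1096, 5495 and 1048 and rnf26 (g4863) at 116, 1274 and 219. Genes of other or unknown role besides cx4nb included ct024 (g1588) at 1441, 7649 and 1852, fa73b (g742), of a family that fuses mitochondria, at 882, 4668 and 1126, the membrane protein tmm18 (g13200) at 675, 3765 and 670.5 and pttg (g8294), which is described as the protein that interacts with the securin PTTG1, at 904, 4879 and 996. The anionic trypsin try2 (g9434) was at 129, 888 and 183, the heat- and acid-stable phosphoprotein hap28 (g17847) at 639, 4243 and 966 and tmm68 (g3048), a membrane protein, at 82.5, 607 and 105. A second hap28 gene, g10749, was more abundant in every library and lowest in silver, at 9032, 6062.5 and 8556. Uncharacterised names were cs025 (g5317), cb068 (g13692), fa43a (g3917), ccd27 (g25300), f1891 (g15041) and run3b (g4232), which ranged from 320.4 (run3b) to 4889 (cs025) normalised reads in silver. The gene porim (g4117) was at 330.1, 1433 and 107 and cc018 (g1360) at 19.7, 743 and 91.

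Yellow and matured are set beside each other here. The choice of genes caps both levels but does not set their order. That cap does not hold for all genes, and at low levels the 30 added draws ratios towards 1. The shares below are therefore not compared at like levels. With 30 added, 123 of the 147 (83.7%) differed by less than 2-fold between them, against 79.4% of all 10422 genes. Of the rest, 12 were at least 2-fold higher in matured and 12 at least 2-fold higher in yellow, or 8.16% each, against 7.75% and 12.8% of all genes. The 12 that leaned to matured were synci, hs3s4, hig1a, hhex, frim, ce170, cc018, impa3, cite2, bcdo2, rdh13 and aldoc. The largest of these differences was that of hs3s4, 58.1-fold (15.8 to 484), which rests on 2 yellow reads. It was followed by ce170, given above, and aldoc at 5.49-fold (2.48 to 14.3). The 12 that leaned to yellow were tri39, m4a15, btnl2, mog, map1a, ipyr, b3gn3, doxa1, porim, npff2, id1 and ca050 (g17871, at 557, 2342 and 240.5). In them the matured level was between 0.11 and 0.43 of the yellow one, and 4 of the 12 belong to the 10 surface and immune-related genes. With library totals in place of size factors every ratio of matured to yellow is 1.22 times as high.

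Copies that share a protein name often differed. Of the 142 names 57 belonged to 1 gene of the table and 85 to several. These 85 had 190 further genes, of which 69 reached 300 normalised reads in silver without passing. Silver was the highest library in 50 of the 69 (72.5%), against 49.5% of all named genes at that level. Zinc finger names and lmnb1 make up many of the 69 and were mostly highest in silver, so the share leans on them. The lmnb1 genes include predictions of 211 and 234 bases, and whether they are parts of one gene was not tested. Names whose other copies lay clearly the other way included cite2, where g2544 was at 155, 1816 and 410.5 and g28224 at 4943, 2908 and 3755, and pp4cb, whose other genes were both highest in yellow, g21961 at 3801, 2075 and 1338 and g39743 at 2053, 1379.5 and 1383. For znf84, g16457 was at 1289.6, 1007 and 424. By contrast another tri39 gene, g1273 (323, 1299 and 310.2), zn300 gene g23203 (664, 2657 and 479) and glyr1 gene g910 (113, 451 and 75.2) were highest in silver by more than 3-fold. Of the reads of g23203, 65.8% aligned uniquely, so its level is uncertain. In 5 names, nrk2, ube2w, p4htm, zn665 and h4, 2 genes were among the 147.

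**Figure D4:**
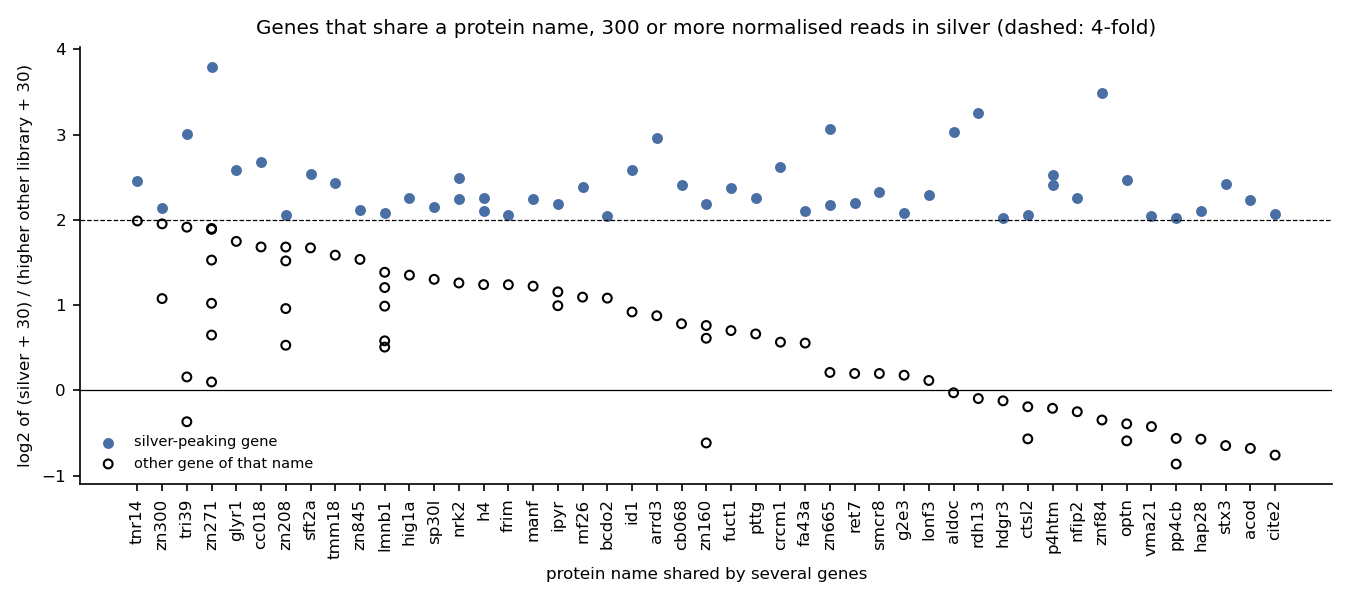
For each protein name that several genes carry, the y axis gives the log2 ratio of silver to the higher of the other libraries after adding 30 normalised reads, with 1 eel per library; filled points are genes among the 147 and open points other genes of that name with at least 300 normalised reads in silver, 1 name left out. Names are sorted by their highest open point, which runs from just under the dashed 4-fold line for tnr14 to below 0 for cite2, where another copy was highest in yellow.

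The 16 gene lists compared, which were chosen with earlier results of these data known, contain 7 of the 147, or 4.76% (ptges, cite2, socs1, s5a1, cdd and both h4 genes). They contain 415 of the 10422 genes, or 3.98%. The 10422 include the left-out genes and the 147 do not. Of the left-out genes, rir2, casp1, hprt, col11, pol4, kitm, pgh1, uckl1 and samh1 belong to these lists, so the shares cannot be compared. With the left-out genes included, 2 of 10 genes of the inflammasome, cytokine and chemokine list passed both thresholds (casp1 and socs1), 1 of 6 of the complement and soluble defence list (col11), 1 of 29 apoptosis genes (casp1), 2 of 27 histones and 1 of 17 transposon-derived genes (pol4), all to be read against the 1.52% of all genes. None of the 26 immediate early genes, 41 cell stress and unfolded protein response genes, 20 p53 target genes, 34 oocyte genes, 42 lysosome and protein turnover genes or 15 genes of signalling receptors and growth factors passed, where 1.52% of all genes did. In the opposite direction, with silver at most 0.25 of both other libraries, were 11 of 12058 named genes with 300 normalised reads in any library (0.0912%). They include the interferon-induced if44l (g26148) of the interferon list at 3121, 216 and 3394, and betacellulin, btc (g14739), of the prostaglandin and ovulation list. The median log2 ratio of silver to yellow, 30 added, was 1.17 for the immediate early, 0.29 for the cell cycle and -0.35 for the oocyte list, against 0.22 over all genes. It was higher still for the prostaglandin and ovulation list (1.27) and the inflammasome, cytokine and chemokine list (1.18). Over matured, the immediate early, cell cycle and oocyte lists had medians of 0.85, 0.36 and 0.59, against 0.36 over all genes.

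Other features of the 147 were close to those of the rest. The longest predicted transcript had a median of 1900 bases (quartiles 1344.5 and 2919), against 2119 (1292.5 and 3244) in the 10264 other named genes with 300 normalised reads in silver, and 12.2% were shorter than 1000 bases against 17.2%. Median similarity to the named protein was 0.65 against 0.67. Reads aligned uniquely at 90% or more in all but 4 of the 147 (k1c13, zn845, zn429 and zn160), so that 2.72% were under that share against 1.63% of the other genes. In none was it under 50%, against 1.22%. The 5 genes just inside the threshold were impa3, cdd, ca050, macc1 and hdgr3 (g555, at 81.3, 422 and 73.4), with a lower ratio of 4.001 to 4.060 after adding 30. The 5 just outside were morn3 (g6800), the transcription factor sox11 (g7012), nptn (g8623), cc28a (g9407) and the energy-sensing kinase subunit aapk1 (g7456), at 3.993 to 3.976. Thus sox11 at 1689, 6822 and 689 and aapk1 at 1207, 4889 and 618 normalised reads were left out by a small margin over yellow, and the boundary marks no gap in the data.

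The scale used decided how many genes were counted. On library totals, which make each ratio of silver to matured 0.766 and each ratio of silver to yellow 0.937 of that with size factors (log2 shifts of -0.39 and -0.09), 78 of the 147 passed and no other gene did. Of the 147, 59 passed under library totals, TMM factors, uniquely aligned reads, the authors' RPKM, no addition and an addition of 100 alike. These 59 include synci, id1, ska2, orc6, both nrk2 genes, ptges, ube2w (g6069), ccng2, doxa1, cfc1, atmin, e41la, osta, stea1, egln3, both collagen genes and btnl2. Among those that do not are pp4cb, eri2, bud31, tf2h5, tgfa and hig1a, which missed the threshold under at least 1 of these settings. The authors' deposited folds of silver over yellow equal those given here within a relative difference of 8.7e-08. Their adjusted p from DESeq without replicates was under 0.1 for 11 of the 147 genes in silver versus yellow. It was under 0.1 for 10 in matured versus silver and for 3 in both (e41la, sytl2 and cc141). In each of these comparisons it was under 0.1 for 23 of the 10422 genes. The 147 were chosen by their folds in these same comparisons, so these numbers are a description and give no separate support.

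**Figure D5:**
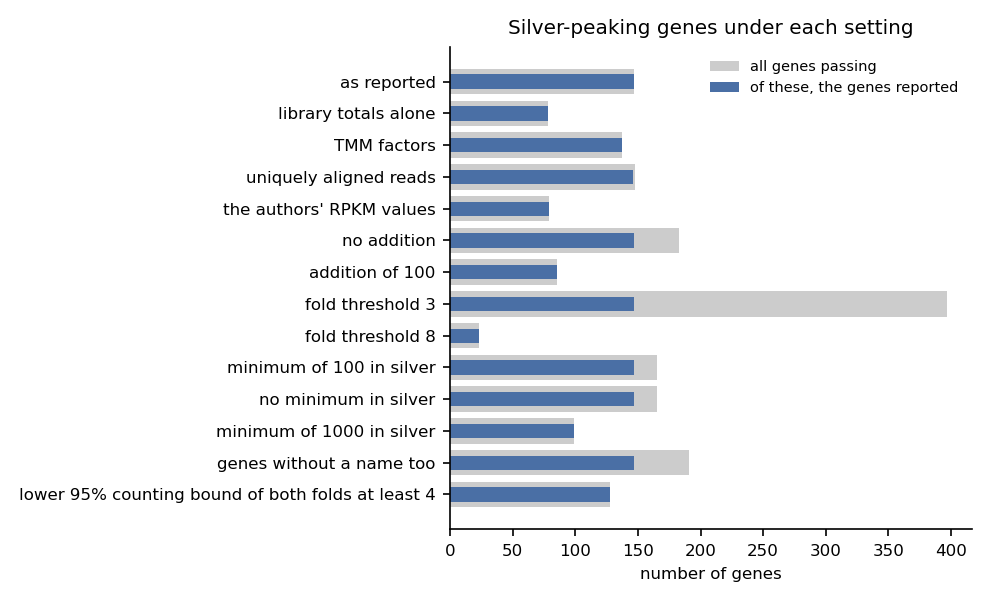
Number of named genes passing the rule (x axis) under the reported setting and 13 others; grey bars count all genes that pass and blue bars those among the 147 described. The count ranges from 23 at a fold threshold of 8 to 397 at a fold threshold of 3, and is 78 with library totals alone.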

How the data were processed

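Ovary RNA of 1 yellow, 1 silver and 1 matured eel was sequenced from Illumina mRNA libraries, per the labels' protocols. Genes were Augustus predictions that Blast2GO named by protein similarity, and CLC bio aligned and counted the reads, per the file headers. The counts used are the authors' corrected total reads, with uniquely aligned reads as an alternative. RPKM, fold, log2 fold and p-values (DESeq, no replicates) were deposited by the authors, as was the similarity fraction. Of tools without a stated role, the submitters' processing notes name TopHat2 2.0.5, SAMtools 0.1.18, CASAVA and HTSeq. No source used here gives the build of the genome. A closing line of totals, 1 line without a gene, was left out.

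Corrected counts were divided by size factors of 0.812 (yellow), 1.13 (silver) and 1.08 (matured), the median ratio to the geometric mean over 33674 genes with reads in every library. Folds are ratios of these values with 95% intervals from the exact binomial distribution of one library's reads given both (Clopper-Pearson). These intervals cover counting error only, and PCR copies are not independent molecules. Ratios against a floor of 3 reads take no account of counting error. With 1 eel per stage no test was made and no p-value computed. Names in the text were the 15 most abundant genes, the 15 with the largest lower fold, the 5 on each side of the threshold, list members and shared names, with the rest chosen after their values were seen; the values of 1 of these genes are not reported here. The members and lists were chosen with earlier results of these data known. The set of zinc finger names and 4 further lists (low oxygen, EGF receptor ligands, Nodal, retinoids) were drawn up after the members were known. The rule and intervals were run on simulated Poisson counts around a shared profile, with some genes raised in silver. No differences between eels were simulated, so that run says nothing of the spread between eels. Python 3.11.15, numpy 2.4.6, pandas 2.3.3, scipy 1.17.1, matplotlib 3.10.9 and, for TMM factors, edgeR 4.0.16 in R 4.3.3 were used. Alternatives were library totals, TMM, unique reads, RPKM and other additions, thresholds and minimums.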

Additional observations from a re-analysis of the deposited data

How the results depend on the processing

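The 147 genes became 78 with library totals alone, 79 with the authors' RPKM values brought back to reads, 85 with an addition of 100, 397 at a fold threshold of 3, 23 at a fold threshold of 8 and 99 with a minimum of 1000 normalised reads in silver; the RPKM rest on library totals. With TMM factors there were 137, with uniquely aligned reads 148 (146 of the 147 among them), with no addition 183, with a minimum of 100 or none 165, with unnamed genes too 191, with a lower counting bound of 4 on both folds 128, and with 90% unique reads, chosen after seeing the data, 143. With library totals, which raise every ratio of matured to yellow alike, this fold turned from below to above 1 in 25 of 145 genes, and with RPKM in 26. The counting interval of the reported value excluded 1 in 6 of the 25, cx4nb (1.06), nrk2 g571 (1.01), ccng2 (1.06), va0e2 (1.09), cep41 (1.05) and zn300 (1.03), and with RPKM, at the same values, also in zn429 (1.002). No replicate could be left out, and no paired analysis was possible because each stage has 1 eel. At 1 eel per stage depth limits the lowest levels, where 1 to 12 reads stand behind a fold, and not the differences between eels.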

Other observations

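Besides the named genes, 44 genes without a protein name passed the same thresholds. The most abundant was g267, at 25209 normalised reads in yellow, 129183 in silver and 24398 in matured ovary, above each of the 147 named genes in silver. The next were g10437 at 640.5, 5454 and 843 and g2267 at 1064, 4632 and 948 normalised reads in the yellow, silver and matured library, and no role can be given for them.

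Of the 147, hig1a, egln3, aldoc and cite2 are known in mammals to be induced by low oxygen, and both p4htm genes are related to the oxygen-sensing hydroxylases. In a list of such genes drawn up after these were seen, 43 had 300 normalised reads in silver. These 6 passed both thresholds, which the way the list was made fixes, and none of the other 37 did. Among all genes 1.52% passed, and so few genes cannot be told from that share. The stress gene ddit4 (g5655) was at 12587, 37890.3 and 10048, that is 3.01-fold over yellow and 3.77-fold over matured. The gene mxi1 (g9956) was at 604, 2491 and 1031. The glycolytic genes pgk1 (g23977) at 5909.6, 2364 and 4665 and enoa (g15189) at 2643, 2199 and 5057 and the sensor hydroxylase egln1 (g20545) at 3127, 2909.9 and 2019 are given for comparison, as is hif1a (g6335) at 621, 459.8 and 970.5.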
